A study of Mus musculus with 18 samples.

Results

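The genes described here encode the nuclear subunits of respiratory complex III, complex IV and ATP synthase, together with cytochrome c. They were chosen by name from the genes that the array annotation gives to a probe set as its single symbol: every symbol beginning with Uqcr, Cox4, Cox5, Cox6, Cox7, Cox8 or Atp5, plus Cyc1 and Cycs. This gave 43 of 12393 genes, with 79 of the 20380 probe sets that carry 1 symbol, and each gene was represented by its probe set of highest mean log2 signal. Complex III had 9 members, cytochrome c 1, complex IV 16 and ATP synthase 17. Those tested were the 40 whose signal exceeded the median of its array 3 times or more among the 18 arrays. The exceptions were Cox6b2, Cox8b and Atp5l, whose signals passed the array median in 0, 2 and 2 arrays.

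The RNA came from motor neurons cut by laser from stained lumbar spinal cord sections, and each array held the RNA of 1 mouse. The 6 groups were G93A mice, which carry a mutant human SOD1 transgene and model familial amyotrophic lateral sclerosis, and non-transgenic littermates, here called controls, at 60, 90 and 120 days of age, with 3 animals in each group. Strain, sex, transgene copy number and promoter were not given in the sources used here. A p-value therefore measures the spread between single animals, and with 12 residual degrees of freedom the number of arrays limits its precision.

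Complex III passes electrons from ubiquinol to cytochrome c, a small mobile protein of the intermembrane space, and pumps protons. Complex IV, cytochrome c oxidase, hands those electrons to oxygen and pumps protons too, and ATP synthase lets protons return through its membrane rotor to drive the F1 head, where ATP is made. Motor neurons are large cells with long axons that depend on this supply of ATP, and mitochondrial changes are a known feature of SOD1 G93A mice.

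Signals are the authors' MAS5 intensities, scaled on each array to a trimmed mean of 100.035 to 100.056. The motor neuron gene Nefl, a neurofilament subunit, ranged from 6044.4 to 26845.7, whereas Slc18a3, the vesicular acetylcholine transporter, exceeded the array median in 0 of 18 arrays and Slc5a7, the choline transporter, in 2. The summed signal of 12 microglial markers was 11899.2 to 21161 in G93A mice at 120 days and 4317.6 to 7131.6 in controls of that age. The mean log2 signal of 12 hybridization controls, spiked into every array, was 8.66 to 11.5 in G93A and 11.7 to 12.3 in control arrays at 60 days. At 120 days the genotypes overlapped in it. For Gapdh, the signal at the 3' end over that at the 5' end, a measure of RNA length, was on the log2 scale 3.88 to 4.63 in G93A and 3.00 to 3.66 in controls at 60 days, and 4.60 to 5.57 and 4.22 to 4.73 at 120 days. In such bulk captures, fewer cells of a type and less RNA per cell cannot be told apart.

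Of the 3 complexes, ATP synthase had the group means farthest apart. The mean log2 level of its 16 tested members, each centred on its own mean over the 18 arrays, was -0.53 ± 0.14 (SD, n = 3) in controls at 60 days and 0.55 ± 0.13 (SD, n = 3) in controls at 120 days. In G93A mice it was -0.13 ± 0.11 (SD, n = 3) at 60 days and -0.16 ± 0.15 (SD, n = 3) at 120 days. At 90 days both genotypes lay between 0.05 and 0.26. The G93A arrays were thus all above the control arrays at 60 days and all below them at 120 days.

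Complex III and complex IV had no such order. The complex III level lay between -0.27 and 0.38 over all 18 arrays. At 60 days it was -0.27 to -0.19 in G93A and -0.17 to 0.19 in control arrays, and at the other ages the genotypes overlapped. The complex IV level ranged from -0.40 to 0.62, and the genotypes overlapped at each age.

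**Figure D1:**
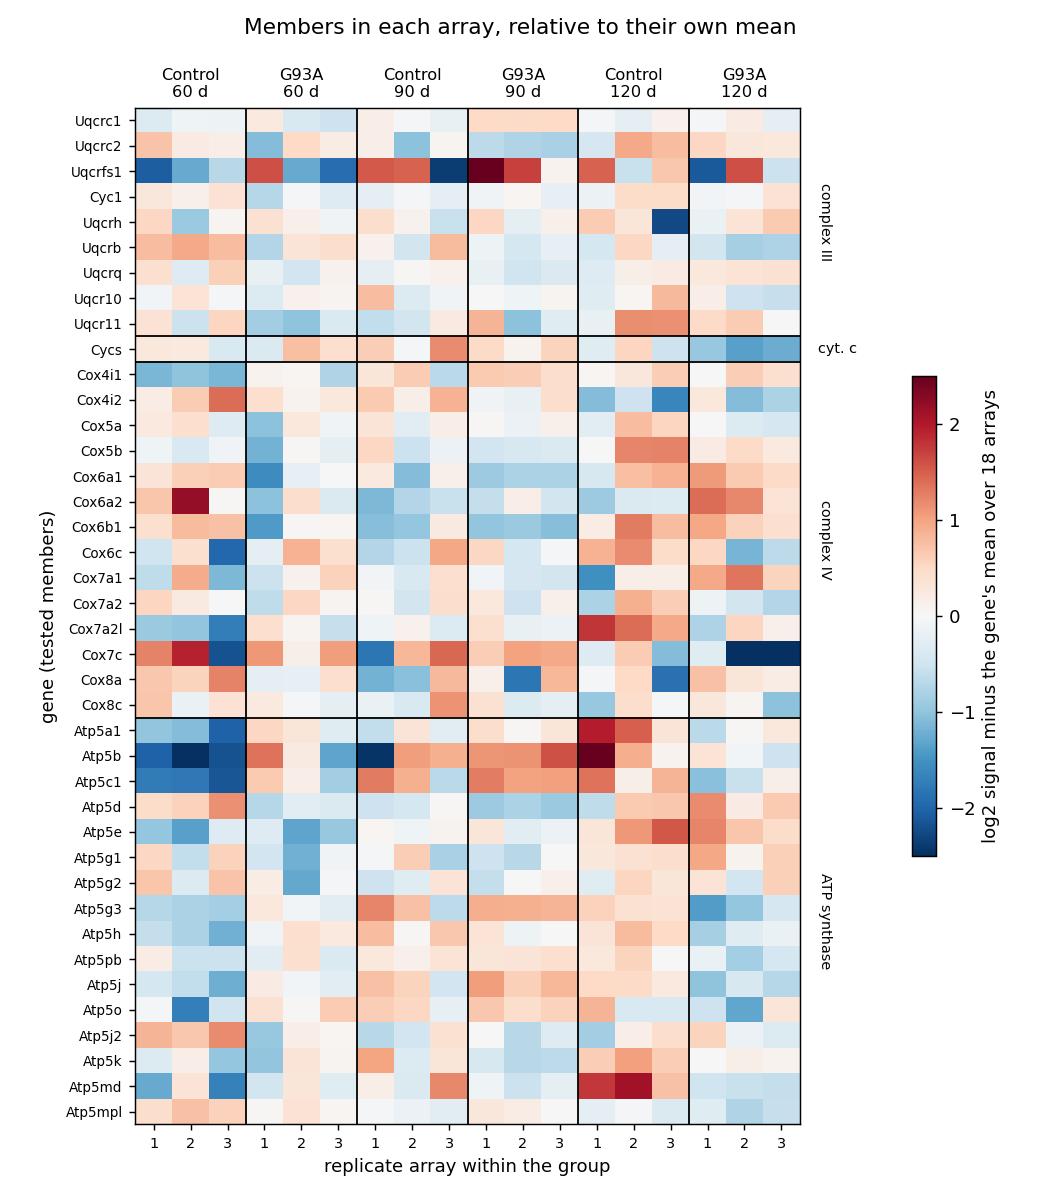
Log2 signal of each of the 40 tested members, minus that gene's mean over the 18 arrays, with genes by complex in rows and arrays by group in columns. Blue is below and red above the gene's own mean, and the colours stop at 2.5 in either direction. Atp5a1, Atp5b and Atp5c1 are blue in the 3 control arrays at 60 days and mostly red in those at 120 days.

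**Figure D2:**
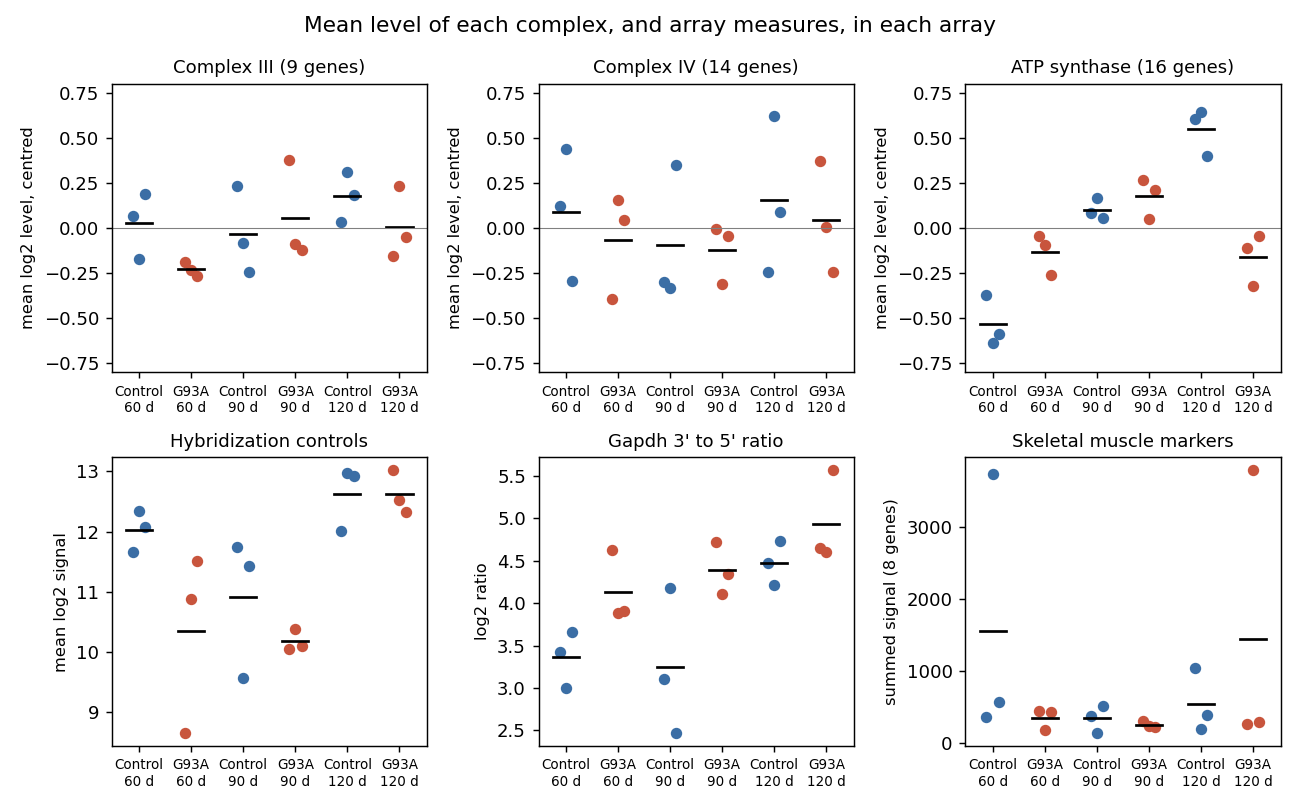
Mean centred log2 level of the tested members of each complex, and 3 array measures, in each of the 18 arrays (blue points, controls; red points, G93A; bars, group means). ATP synthase runs from -0.53 to 0.55 in the control means between 60 and 120 days, while the Gapdh ratio is also higher in controls at 120 days than at 60 days.

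Among the F1 subunits, which form the catalytic head, the alpha and gamma subunit genes passed the test of the change in genotype difference between 60 and 120 days. Atp5a1, the alpha subunit, had signals of 861.2, 799.2 and 416.3 in controls at 60 days and 6589.0, 4746.2 and 2117.6 in controls at 120 days. The younger G93A mice had 2423.6, 2079.7 and 1369.3 and the older 1065.4, 1729.5 and 2023.9. The G93A arrays all lay above the controls at 60 days and all below them at 120 days. The log2 difference ± SE was 1.53 ± 0.39 in the younger mice (limma adjusted p = 0.0656) and -1.38 ± 0.39 in the older (limma adjusted p = 0.154). Neither passed the threshold of 0.05, but their change did, with -2.91 ± 0.55 between 60 and 120 days (limma adjusted p = 0.00817).

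Atp5c1, the gamma subunit that turns inside the head, was the only member past the threshold in a genotype comparison at a single age. At 60 days its signals were 2000.1, 1428.7 and 699.2 in G93A mice and 381.9, 371.9 and 288.4 in controls, with no overlap. It was 3.65-fold higher in G93A (log2 1.87 ± 0.44; limma adjusted p = 0.0415). At 120 days the order was nearly turned round, with 615.3, 873.1 and 1404.5 in G93A against 3276.9, 1403.7 and 2303.1, where the highest G93A array exceeded the lowest control array by less than 1 unit of signal. The difference there was -1.27 ± 0.44 (limma adjusted p = 0.241), and the change from 60 to 120 days was -3.14 ± 0.62 (limma adjusted p = 0.0105).

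The call at 60 days was not firm. It was lost with the hybridization-control level as a covariate (1.17, limma adjusted p = 0.742), with the Gapdh ratio (1.25, limma adjusted p = 0.367), and when any of 8 single arrays was left out: control animal 2 or 3, G93A animal 1 or 2 at 60 days, any of the 3 G93A arrays at 90 days, or G93A animal 2 at 120 days. A second, dim probe set of Atp5c1 went the other way at 60 days (-1.14 ± 1.13) and in the change (1.57 ± 1.60), neither past the threshold.

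Atp5b, the catalytic beta subunit, was dim, at 13.0, 6.3 and 11.7 in controls at 60 days and 135.5, 61.6 and 21.2 in G93A mice. At 120 days it was 390.4, 99.4 and 56.1 in controls and 66.9, 50.6 and 36.8 in G93A. The control arrays at 60 days were the lowest group and did not overlap those of G93A. Their signals lay below the medians of those arrays, 58 to 64, so the size of a difference from them is not given. The genotype difference did not pass at 60 days (limma adjusted p = 0.182) or at 120 days (-1.38 ± 0.85; limma adjusted p = 0.542), nor did the change (limma adjusted p = 0.0925).

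The delta subunit gene Atp5d had the opposite signs, going from -1.18 ± 0.37 to 0.45 ± 0.37 between 60 and 120 days, and its change of 1.63 ± 0.52 missed the threshold (limma adjusted p = 0.103). Its signals at 60 days were 7112.5, 7718.6 and 11516.6 in controls and 3142.5, 4317.0 and 4040.9 in G93A, so the G93A arrays were all lower. Another probe set of Atp5d did not share this course. It gave -0.23 ± 0.41 at 60 days, -0.31 ± 0.41 at 120 days and a change of -0.08 ± 0.58, none past the threshold. Atp5e, the epsilon subunit, differed between genotypes by 0.01 ± 0.41 and -0.19 ± 0.41 at these ages, and at 90 days had 142.7, 127.3 and 145.3 in controls against 169.4, 114.6 and 124.3.

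The peripheral stalk holds the head still against the rotor, and 2 of its 4 genes, Atp5h and Atp5j, passed the test of the change. Atp5h, subunit d, had signals of 2771.1, 2413.3 and 1810.8 in controls and 3950.9, 5619.7 and 4931.5 in G93A mice at 60 days. At 120 days it had 5261.4, 7254.1 and 5896.4 in controls and 2363.9, 3408.7 and 3747.9 in G93A. The groups did not overlap at either age and stood in opposite order. The difference changed by -2.02 ± 0.45 (limma adjusted p = 0.0222), and a second probe set of Atp5h changed in the same direction by -4.30 ± 0.94 (limma adjusted p = 0.0193). That second probe set was dim in controls at 60 days, with a mean log2 signal of 4.48, so the size of its change is uncertain. Its genotypes overlapped at 60 days.

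Atp5j, coupling factor 6, stood at 965.5, 862.2 and 566.1 in controls and 1521.5, 1245.5 and 1083.6 in G93A at 60 days, and at 1860.0, 1839.1 and 1560.7 in controls and 656.6, 991.7 and 800.5 in G93A at 120 days. Again neither age showed overlap, and the order turned. Its change was -1.83 ± 0.44 (limma adjusted p = 0.0326). Atp5o, the oligomycin sensitivity protein that joins stalk and head, and Atp5pb, subunit b, had changes of the same sign that did not pass limma's test (-1.63 ± 0.69 and -0.99 ± 0.44). A second probe set of Atp5pb was called higher with age in controls (1.82 ± 0.42; limma adjusted p = 0.0115).

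The c ring is the rotor in the membrane, and 3 genes encode the same mature c subunit. Of these Atp5g3 changed, by -2.12 ± 0.51 (limma adjusted p = 0.0326). Its signals were 1508.1, 1427.1 and 1381.8 in controls and 2960.9, 2371.7 and 2027.0 in G93A at 60 days, and 3675.8, 3232.3 and 3198.4 in controls and 941.6, 1270.8 and 1841.7 in G93A at 120 days. The 2 genotypes were apart at both ages, in opposite order. Atp5g1 and Atp5g2 had changes of the other sign, 0.93 ± 0.62 and 0.70 ± 0.65, which did not pass the test (limma adjusted p = 0.459 and 0.615).

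Of the membrane part, Atp5md, a small protein of synthase dimers, changed by -2.78 ± 0.62 (limma adjusted p = 0.0216). At 120 days it had 2653.1, 3357.5 and 1301.5 in controls and 555.9, 536.1 and 518.2 in G93A mice. All 3 G93A arrays lay close together and below each control array. That difference, 4.22-fold lower in G93A, had the smallest adjusted p of any member at 120 days (log2 -2.08 ± 0.44; limma adjusted p = 0.0708) and passed the threshold with log2 of the signal plus 16, with the hybridization-control covariate, and without control animal 2 at 60 days or control animal 3 at 120 days. At 60 days the groups overlapped, with 327.9, 999.1 and 243.5 in controls and 570.8, 960.7 and 633.1 in G93A. Atp5j2, subunit f, had the opposite course to Atp5md, from -1.15 ± 0.39 at 60 days to 0.12 ± 0.39 at 120 days, and its change of 1.27 ± 0.55 did not pass (limma adjusted p = 0.232).

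**Figure D3:**
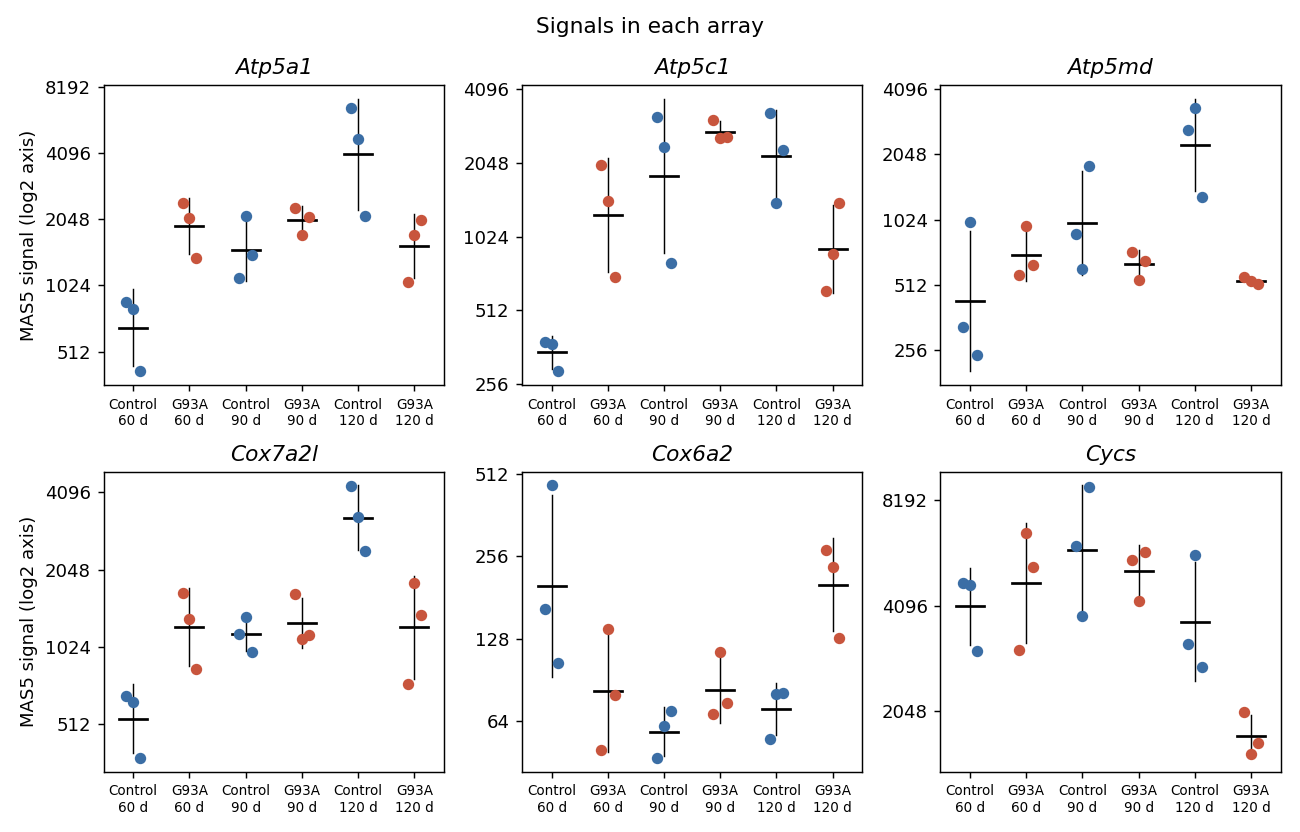
MAS5 signal of 6 members in each array on a log2 axis (blue points, controls; red points, G93A), with the mean of log2 values as a bar and 1 SD as a vertical line. For Atp5a1 and Cox7a2l the G93A points lie above the controls at 60 days and below them at 120 days, and for Cycs the 3 G93A points at 120 days are the lowest of all.

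In all, the test of the change in genotype difference from 60 to 120 days called 7 of the 40 tested members lower and 1 higher, against 1.88% lower and 0.23% higher of all 10020 genes tested. Of the 16 ATP synthase members, 6 were called, all lower, and the median change was -1.31, against 0.13 over all genes. Complex III had no call and a median of 0.42, and complex IV had 1 call in each direction and a median of 0.03. Because the test uses the arrays of both ages, it shares them with the comparisons within each age.

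These 8 calls depended on the model. With the hybridization-control level as a covariate, only Atp5h and Atp5md stayed past the threshold (limma adjusted p = 0.0252 and 0.0464), and without a trend in the variance none did. With the covariate all 7 lower values kept their sign. The fit without a trend changes only the errors and p-values, so the signs there could not differ. The part of the hybridization level, which differed between genotypes at 60 days, was not tested beyond this. Leaving out 1 array gave 3 to 9 calls: 3 without G93A animal 1 at 120 days, 4 without control animal 3 at 60 days, G93A animal 2 at 60 days, or control animal 1 or 2 at 120 days, and 5 without G93A animal 1 at 60 days. Cox7a2l, Atp5a1 and Atp5c1 were called in each of those 18 fits. Atp5h was lost in 3 of them, Atp5md in 5, and Atp5g3 and Atp5j in 7 each, all of them fits without an array of 60 or 120 days. Atp5h was lost without control animal 3 or G93A animal 2 at 60 days or G93A animal 1 at 120 days, and Atp5md, Atp5g3 and Atp5j without each of these too. Atp5md was also lost without control animal 1 or 2 at 120 days. Atp5g3 and Atp5j were lost without either of those, without G93A animal 1 at 60 days and, at 120 days, without G93A animal 2 (Atp5g3) or 3 (Atp5j).

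The genotype differences of single ages can be set side by side without shared arrays. At 60 days, 11 of the 16 ATP synthase members were higher and 5 lower in G93A, with a median of 0.46, against -0.07 over all genes. At 120 days, 3 were higher and 13 lower, with a median of -0.72 against 0.07. The sign was opposite at 60 and 120 days for 87.5% of them, for 62.5% of all 40 members and for 59.7% of all genes. Among the ATP synthase members, 11 went from positive to negative and 3 from negative to positive.

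**Figure D4:**
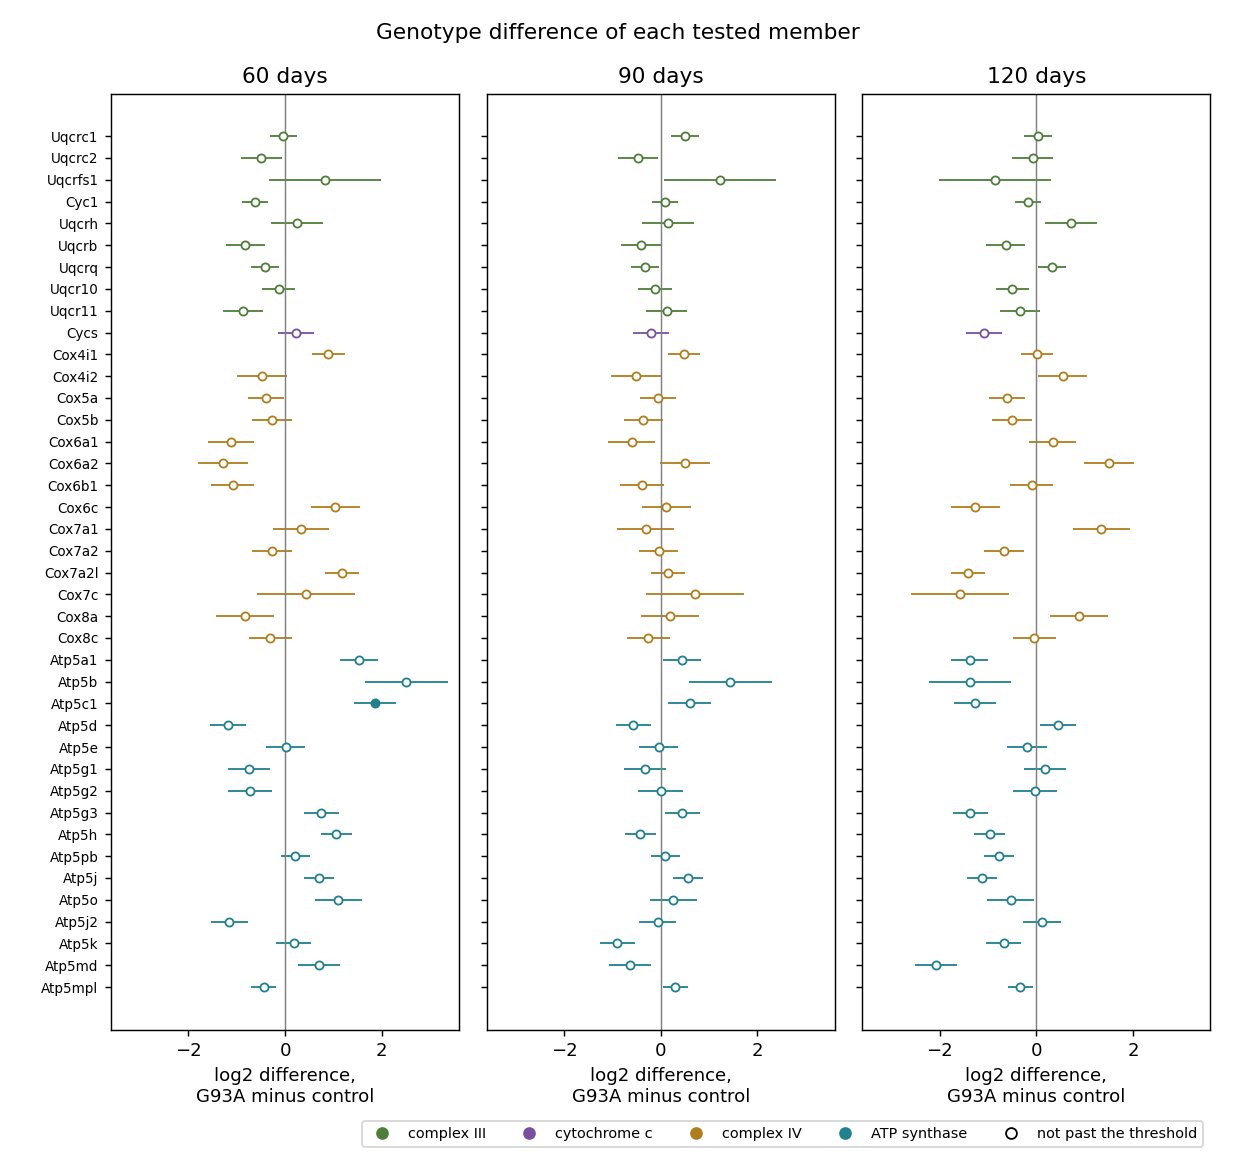
Log2 difference between G93A and control mice for each tested member at 60, 90 and 120 days, with its standard error from limma, coloured by complex. Filled points are past the threshold, which applies to Atp5c1 at 60 days. Most ATP synthase points lie right of 0 at 60 days and left of 0 at 120 days.

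Counted by arrays that did not overlap, 9 of 40 members were higher and 8 lower in G93A at 60 days, where 8.19% of all genes were higher and 10.8% lower without overlap. Of the ATP synthase genes 7 were higher (Atp5a1, Atp5b, Atp5c1, Atp5g3, Atp5h, Atp5j and Atp5o) and 3 lower (Atp5d, Atp5j2 and Atp5mpl). The higher members outside ATP synthase were Cox4i1 and Cox7a2l, and the lower ones Cyc1, Uqcrb, Cox6a1, Cox6b1 and Cox8a. At 120 days 3 members were higher and 10 lower, where the shares over all genes were 9.42% and 6.72%. The lower ones comprised 7 ATP synthase genes (Atp5a1, Atp5g3, Atp5h, Atp5pb, Atp5j, Atp5k and Atp5md), Cox7a2l, Cycs and Uqcrb.

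By limma's test, 1 of 40 members (Atp5c1, higher) was called at 60 days, where 0.629% of all genes were called higher and 0.0299% lower. At 120 days 0 members were called, where 0.0299% of all genes were called higher and 0% lower. At an unadjusted p below 0.05, 9 members were higher and 7 lower at 60 days (8.1% and 4.87% of all genes), and 2 were higher and 10 lower at 120 days (5.69% and 6.25%). At 120 days, 2 members passed the adjusted threshold with the hybridization-control level as a covariate, 1 passed with log2 of the signal plus 16, 3 passed without control animal 3 of that age, and 1 passed without control animal 2 at 60 days.

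In controls, 8 of the 16 tested ATP synthase genes rose from 60 to 120 days of age and 0 fell. Of the 16, 12 differences were positive and 4 negative (median 1.15, against -0.22 over all genes). Over the 40 members 10 were higher and 1 lower, where 4.12% of all genes were higher and 2.9% lower. Atp5a1 rose 6.14-fold (log2 2.62 ± 0.39; limma adjusted p = 2.896e-04), Atp5c1 6.37-fold and Atp5md 5.26-fold. These are values of the representing probe sets. The 2 further probe sets of Atp5a1 gave 0.62 ± 0.40 and -0.19 ± 0.58 (limma adjusted p = 0.356 and 0.871). The second probe set of Atp5c1 gave -1.78 ± 1.13 (limma adjusted p = 0.338). That of Atp5h, dim in the controls of 60 days, gave 3.34 ± 0.66 (limma adjusted p = 0.00399). Atp5b was called higher too, but no fold is given, since its signals in the controls of 60 days lay below the medians of their arrays; with log2 of the signal plus 16 the difference was 2.52. Atp5e rose 3.63-fold, from 70.4, 53.6 and 110.3 to 169.1, 292.5 and 404.0. Atp5h, Atp5g3 and Atp5j rose 2.65-fold, 2.34-fold and 2.25-fold. Each of these 8 genes had its 3 control arrays at 120 days above its 3 at 60 days, which their calls in the same arrays favour. Without regard to calls, 9 of the 16 ATP synthase genes were higher at 120 days without overlap and 2 lower. Of the 40 members 14 were higher and 6 lower in this way. Of all 10020 genes 974 (9.72%) were higher and 1808 lower. Cox4i1, Cox7a2l, Atp5a1, Atp5c1, Atp5e and Atp5md kept their calls when any single array was left out. Atp5b was lost without control animal 1 at 120 days, Atp5h without control animal 3 at 60 days, and Atp5j without that array or control animal 1 or 2 at 120 days. Atp5g3 was lost without any of the 6 control arrays of these ages or G93A animal 2 or 3 at 90 days.

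Atp5k, subunit e, rose by 1.13 ± 0.36 without passing the threshold (limma adjusted p = 0.0577). Atp5j2 and Atp5mpl, a small associated protein, were lower at 120 days by -0.99 ± 0.39 and -0.80 ± 0.26, also short of it (limma adjusted p = 0.114 and 0.0582).

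Other measures moved with age in the same arrays. The Gapdh ratio did not overlap between control arrays of 60 days and of 120 days, and the summed signal of 8 oligodendrocyte markers was 12490.7 to 14184.6 at 60 days and 23114.1 to 40418.2 at 120 days. With the Gapdh ratio as a covariate, Cox7a2l, Atp5a1, Atp5h and Atp5md stayed past the threshold among the 11 calls, and the other 7 did not. With the hybridization-control level as a covariate all 11 did, and that fit called 15 members in all, 10 higher and 5 lower. The part of the oligodendrocyte markers was not tested. Centring each array on its median moved the median of all genes from -0.22 to 0.28 and gave 14 members higher and 0 lower, and quantile normalization gave 7 higher and 2 lower. Over all genes the reported scale gave 413 higher and 291 lower, and centring gave 926 and 82. The count was 7 without control animal 1 at 120 days.

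In G93A mice the same comparison of ages called 2 members, Atp5e higher and Cycs lower, where 1.13% of all genes were higher and 1.13% lower. Atp5e went from 109.3, 55.1 and 71.0 to 320.3, 221.5 and 189.5, with no overlap, a 3.16-fold rise (log2 1.66 ± 0.41; limma adjusted p = 0.0353). The median over ATP synthase was -0.34, against -0.11 over all genes. Atp5e thus had values of 1.86 ± 0.41 in controls and 1.66 ± 0.41 in G93A mice, whereas Atp5a1 had 2.62 ± 0.39 and -0.30 ± 0.39. The call of Atp5e was lost with either covariate, and without any of 6 arrays: a G93A array of 60 days, G93A animal 3 at 90 days, or G93A animal 1 or 2 at 120 days.

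The promoters of 4 members that passed the test of the change in genotype difference are shown, so that the windows can be read side by side. Atp5c1 and Atp5j passed it too, and their windows, 2 each, are not shown. A window holds 250 bases before and 50 after the annotated start, from RefSeq on GRCm38.p6, 5′ to 3′ on the gene's strand. Capitals mark matches, on either strand, to the cores of 3 factors known to act on respiratory genes: NRF-1 (GCANGCGC or GCGCNTGC), ETS factors such as GABP (CCGGAAG or CTTCCGG) and the ERR receptors (AAGGTCA or TGACCTT).
Atp5h, chr11:115419870-115420169, minus strand: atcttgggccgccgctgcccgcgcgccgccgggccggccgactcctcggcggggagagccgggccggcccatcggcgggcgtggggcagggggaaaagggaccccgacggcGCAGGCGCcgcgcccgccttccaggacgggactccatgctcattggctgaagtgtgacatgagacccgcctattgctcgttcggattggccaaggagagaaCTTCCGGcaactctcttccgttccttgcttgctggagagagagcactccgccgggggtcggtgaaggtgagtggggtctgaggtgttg
Atp5md, chr19:47090598-47090897, minus strand: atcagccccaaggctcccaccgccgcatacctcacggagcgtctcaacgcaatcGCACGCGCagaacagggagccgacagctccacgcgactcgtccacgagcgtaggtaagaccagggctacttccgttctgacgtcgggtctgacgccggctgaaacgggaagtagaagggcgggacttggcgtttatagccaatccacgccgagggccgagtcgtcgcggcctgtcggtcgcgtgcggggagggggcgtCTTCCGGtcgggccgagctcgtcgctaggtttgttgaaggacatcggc
Atp5g3, chr2:73911277-73911576, minus strand: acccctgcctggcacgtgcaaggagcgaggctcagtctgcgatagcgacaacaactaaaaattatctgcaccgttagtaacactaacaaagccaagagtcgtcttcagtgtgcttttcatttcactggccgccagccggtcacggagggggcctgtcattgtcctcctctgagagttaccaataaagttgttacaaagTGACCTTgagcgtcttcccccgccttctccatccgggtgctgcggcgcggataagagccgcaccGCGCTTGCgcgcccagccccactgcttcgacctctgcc
Cox7a2l, chr17:83514284-83514583, minus strand: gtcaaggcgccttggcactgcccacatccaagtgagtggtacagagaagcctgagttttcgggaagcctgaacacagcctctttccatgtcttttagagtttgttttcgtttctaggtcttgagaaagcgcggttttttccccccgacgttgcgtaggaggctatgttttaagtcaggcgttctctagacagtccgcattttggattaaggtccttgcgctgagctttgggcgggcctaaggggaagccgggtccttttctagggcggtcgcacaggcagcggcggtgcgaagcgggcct

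Positions are those of a match's first base, counted from the start as 0. In Atp5h an NRF-1 core began at -139 and an ETS core at -38, and in Atp5md an NRF-1 core began at -196 and an ETS core at 2. Atp5g3 held an NRF-1 core at 12 and an ERR core at -52, and the Cox7a2l window held none of the 3. Windows were found for 32 of the 43 members, 35 windows in all. Of these 42.9% held the NRF-1 core, against 9.61% of all 32851 windows, 31.4% the ETS core against 8.86%, and 11.4% the ERR core against 4.72%. Of the 8 windows of members called in the change, 4 held the NRF-1 core, and of the 27 windows of other members 11 did. Those 8 windows are not 1 per called member, since Atp5c1 and Atp5j had 2 each and Atp5a1 and Cox6a2 had none. The NRF-1 core was in 1 window of Atp5c1, at -15, and in neither window of Atp5j. A match describes letters only and was tested for nothing else.

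In complex IV, Cox7a2l had the change of smallest adjusted p. It is related to subunit 7a and is known as a factor that joins complexes III and IV into supercomplexes. Its signals were 660.1, 627.9 and 378.2 in controls and 1663.6, 1311.0 and 838.6 in G93A at 60 days, and 4341.6, 3285.4 and 2424.0 in controls and 734.7, 1814.3 and 1363.5 in G93A at 120 days. The genotypes did not overlap at either age and were in opposite order. At 90 days they overlapped, with 1153.7, 1339.4 and 981.6 in controls and 1642.7, 1103.1 and 1136.7 in G93A.

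The Cox7a2l difference went from 1.18 ± 0.35 (limma adjusted p = 0.121) to -1.42 ± 0.35 (limma adjusted p = 0.111), a change of -2.60 ± 0.49 (limma adjusted p = 0.00818). In controls it rose 6.04-fold from 60 to 120 days (limma adjusted p = 9.616e-05), and in G93A mice its value was -0.00 ± 0.35. Its other 2 probe sets had changes of -2.68 ± 0.46 (limma adjusted p = 0.00407) and -1.65 ± 0.82 (limma adjusted p = 0.303).

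Subunit 4 has a widely expressed isoform, Cox4i1, and one of lung and low oxygen, Cox4i2, and these moved in opposite directions with age in controls. Cox4i1 rose 2.66-fold (log2 1.41 ± 0.34; limma adjusted p = 0.0139), from 1385.9, 1523.1 and 1382.3 to 3165.2, 3717.2 and 4653.8. G93A mice had 3258.5, 3179.7 and 1821.2 at 60 days, all above the controls of that age (0.90 ± 0.34; limma adjusted p = 0.236), and 3026.9, 4670.9 and 4010.4 at 120 days, where the groups overlapped. Cox4i2 fell 3.51-fold (log2 -1.81 ± 0.51; limma adjusted p = 0.0346), from 85.8, 117.1 and 199.9 to 35.8, 53.0 and 24.4. Its signals in control animals 1 and 3 at 120 days lay below the medians of those arrays, 37 and 47.8, so the size of the fall is uncertain. The control arrays of the 2 ages did not overlap for either gene. Both calls were lost with the Gapdh ratio as a covariate, and that of Cox4i2 also without control animal 2 or 3 at 60 days or control animal 1 or 3 at 120 days. In G93A mice the values were 0.53 ± 0.34 and -0.79 ± 0.51, neither past the threshold. Cox4i2 had 101.3, 80.7 and 91.2 in the youngest G93A mice and 91.0, 35.9 and 44.0 in the oldest, which overlapped.

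Cox6a2, the heart and muscle isoform of subunit 6a, was the only member called with a higher genotype difference at 120 than at 60 days, by 2.80 ± 0.73 (limma adjusted p = 0.0450). It had 164.8, 466.7 and 103.9 in controls and 50.1, 138.6 and 79.5 in G93A at 60 days, and 54.7, 79.9 and 80.7 in controls and 270.0, 234.9 and 128.9 in G93A at 120 days. The G93A arrays were all above the controls at 120 days and overlapped them at 60 days. The highest value, 466.7 in control animal 2 at 60 days, came from an array in which 8 skeletal muscle markers summed to 3741.9, and in G93A animal 2 at 120 days, with 234.9, they summed to 3790.5.

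In the other 16 arrays that muscle sum was between 141.5 and 1044.9, and G93A animal 1 at 120 days, with the Cox6a2 signal of 270.0, had 261.2. Without control animal 2 at 60 days the change was 2.19 (limma adjusted p = 0.106), and without G93A animal 2 at 120 days it was 2.69 (limma adjusted p = 0.0863). The call was also lost without any of 8 other arrays, with the hybridization-control level (limma adjusted p = 0.279) and with the Gapdh ratio (limma adjusted p = 0.0561). Cox7a1, the heart and muscle isoform of subunit 7a, was 137.9, 181.2 and 104.5 in G93A mice at 120 days, against 24.7, 80.2 and 80.5 in their controls. It did not overlap there, and its difference of 1.34 ± 0.59 did not pass the test (limma adjusted p = 0.356). Cox8b, the muscle isoform of subunit 8, was not tested because its signals were low, from 5.0 to 79.2.

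By their representing probe sets, the other subunits of complex IV had no calls by limma in any comparison. Another probe set of Cox5b was called higher with age in controls (1.13 ± 0.30; limma adjusted p = 0.0251), and another of Cox6a1 was called higher with age in G93A mice (1.31 ± 0.32; limma adjusted p = 0.0323). Cox6b1 had 4520.8, 12222.3 and 12390.8 in G93A and 15859.8, 20840.9 and 19859.3 in control arrays at 60 days. Both Cox6a1 and Cox6b1 were lower in all 3 G93A arrays, by -1.12 ± 0.48 and -1.09 ± 0.45 (limma adjusted p = 0.321 and 0.298), and differed by 0.34 ± 0.48 and -0.10 ± 0.45 at 120 days. Cox6c, a membrane subunit, had a change of -2.31 ± 0.72 (limma adjusted p = 0.0925), from 1.04 ± 0.51 at 60 days to -1.27 ± 0.51 at 120 days. By the representing probe sets, the genotype difference of Cox5a and Cox5b, on the matrix side, lay between -0.60 and -0.06 at the 3 ages. That of Cox7a2 lay between -0.67 and -0.04. At 90 days the sign was shared by 0 of 2 further probe sets of Cox5a, 2 of 5 of Cox5b and 0 of 1 of Cox7a2. At 120 days it was shared by 2 of 2, 3 of 5 and 1 of 1. The further one of Cox7a2 was then lower in G93A without overlap (-0.90 ± 0.29; limma adjusted p = 0.211). Cox7c was dim, from 4.8 to 117.2, with standard errors of 1.02. Cox8a was lower in G93A at 60 days without overlap (-0.83 ± 0.61) and differed by 0.88 ± 0.61 at 120 days. Another probe set of Cox8a gave -0.05 ± 0.71 at 60 days, with overlap, and -0.76 ± 0.71 at 120 days. Cox8c, the isoform of testis, differed by -0.30 ± 0.44 and -0.04 ± 0.44. Over complex IV the median difference was -0.29 at 60 days, where quantile normalization gave 0.09, and -0.07 at 120 days.

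Cytochrome c is encoded by Cycs in somatic cells, and it fell with age in G93A mice. In G93A arrays of 60 days its signals were 3066.0, 6598.0 and 5260.6, in those of 90 days 5524.6, 4216.1 and 5805.9, and in those of 120 days 2036.9, 1546.1 and 1670.2. The 3 G93A arrays at 120 days were below every other array of the study. The fall from 60 to 120 days was 2.72-fold (log2 -1.45 ± 0.37; limma adjusted p = 0.0437), and in controls the value was -0.15 ± 0.37. Controls went from 4748.6, 4685.4 and 3042.6 by way of 6062.1, 3834.5 and 8884.3 to 3185.8, 5721.2 and 2736.8, and these groups overlapped.

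The genotype difference of Cycs went from 0.22 ± 0.37 to -1.08 ± 0.37 (limma adjusted p = 0.241 at 120 days), and its change of -1.30 ± 0.53 did not pass (limma adjusted p = 0.201). Another probe set fell in G93A mice, by -1.55 ± 0.30 (limma adjusted p = 0.0120), and its change in genotype difference did pass, at -2.32 ± 0.43 (limma adjusted p = 0.00735). Its other probe set had -0.94 ± 0.29 in G93A mice (limma adjusted p = 0.0939). The call of the first probe set was lost with the Gapdh ratio as a covariate (-0.93, limma adjusted p = 0.199), with the replicate block (limma adjusted p = 0.0574) and without any of 10 single arrays, including each G93A array at 90 and 120 days. At 120 days the summed signal of 12 motor neuron markers was 9017.2 to 16633.3 in G93A and 14649.3 to 29343.6 in controls, and its part in the Cycs values was not tested. Nefl makes up most of that sum, with a median signal of 14275.9 over the arrays, where Nefh, the next, had 1316.35. Of the 10 motor neuron markers tested, 4 were higher and 6 lower in G93A at 120 days. Between the G93A arrays of 60 and of 120 days, the summed oligodendrocyte markers were 13213.2 to 21352.4 at the younger and 26469 to 40184.1 at the older age, and the microglial ones were 2625.8 to 3478 and 11899.2 to 21161. Neither overlapped, and their part was not tested.

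Complex III had 0 of 9 members past limma's threshold in each of the 8 comparisons. The share of all genes called, in either direction, was 0% at 90 days and at most 7.03%, in controls with age. At such shares a count of 0 of 9 does not set complex III apart. At an unadjusted p below 0.05, 2 were lower in G93A at 60 days, against 4.87% of all genes. In its core and catalytic part, Cyc1, cytochrome c1, was lower in G93A at 60 days in all 3 arrays, with 948.3, 1515.5 and 1231.2 against 1880.0, 1687.8 and 1995.8 in controls. The groups did not overlap, and the difference was -0.61 ± 0.27 (limma adjusted p = 0.337). It was -0.17 ± 0.27 at 120 days. Uqcrc1 and Uqcrc2, the core proteins, differed by -0.03 ± 0.28 and -0.49 ± 0.42 at 60 days and by 0.03 ± 0.28 and -0.07 ± 0.42 at 120 days. A second probe set of Uqcrc2 gave 0.58 ± 0.33 at 60 days, with overlap. It was higher in G93A without overlap at 90 days (0.68 ± 0.33) and lower without overlap at 120 days (-0.53 ± 0.33). Its change from 60 to 120 days was -1.10 ± 0.47 (limma adjusted p = 0.227), and none of these passed. Uqcrfs1, the Rieske iron-sulfur protein, was dim, from 5.1 to 156.1, and had standard errors of 1.16.

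Of the small subunits of complex III, Uqcrb was lower in G93A without overlap at both 60 and 120 days. At 60 days it had 5867.1, 12312.8 and 13254.0 in G93A, against 16721.0, 18889.5 and 16759.8. At 120 days it had 7104.4, 5519.3 and 5762.3 in G93A, against 7260.5, 14108.5 and 8311.1. The differences of -0.82 ± 0.41 and -0.64 ± 0.41 did not pass limma's test, and a second, dimmer probe set gave 2.26 ± 0.82 at 60 days. Uqcrq was the only complex III gene higher in G93A without overlap at 120 days, with 426.4, 452.7 and 461.0 against 282.9, 392.0 and 408.0 (0.33 ± 0.29). Uqcrh, Uqcr10 and Uqcr11 had differences between -0.86 and 0.71 at these ages.

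At 90 days 0 members and 0% of all genes were called by limma. At an unadjusted p below 0.05, Atp5k was lower and 0 members were higher, where 2.18% of all genes were lower and 2.55% higher. Atp5k differed by -0.90 ± 0.36, with 1636.5, 1333.3 and 1361.6 in G93A, all below the 4277.0, 1702.7 and 2636.9 of controls. The other 2 probe sets of Atp5k gave 0.10 ± 0.29 and -0.05 ± 0.30. Uqcrc1 was higher in G93A in all 3 arrays, at 420.8, 411.1 and 418.7 against 331.6, 291.3 and 261.6 (0.51 ± 0.28). Atp5b was higher too, at 113.5, 115.5 and 158.7 against 9.7, 108.9 and 97.8 (1.44 ± 0.85), and so was Atp5mpl (0.30 ± 0.26). Atp5d was lower, at 2764.3, 2975.0 and 2733.8 against 3629.0, 3798.7 and 5266.5 (-0.56 ± 0.37). Without overlap, 3 members were thus higher and 2 lower, where 5.74% of all genes were higher and 5.82% lower. The members' median was -0.02, against -0.01 over all genes.

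The genes whose genotype difference changed between the other ages overlapped at 90 days. Atp5a1 had 1101.9, 2125.9 and 1414.8 in controls and 2305.7, 1733.6 and 2087.5 in G93A. Atp5c1 had 3157.3, 2373.8 and 796.7 in controls and 3077.9, 2579.8 and 2605.0 in G93A, and Atp5g3 had 5750.6, 4105.8 and 1581.6 against 4635.3, 4603.5 and 4442.3. In both of these, control animal 3 lay below the other 5 arrays. Atp5h had 7154.0, 4279.7 and 6641.2 in controls and 5320.4, 3847.1 and 4158.8 in G93A, Atp5j 2180.4, 1921.3 and 943.2 against 2715.0, 1987.9 and 2332.8, and Atp5md 884.2, 606.8 and 1805.4 against 726.7, 539.2 and 659.3. Cox6a2 had 46.7, 61.5 and 69.5 in controls and 67.7, 114.6 and 74.4 in G93A. Cox6a2 signals at this age were all below the lowest control signal of 60 days but for 1 G93A array.

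Averaged over the 3 ages, 0 of 40 members were called by limma, where 0.02% of all genes were called higher and 0% lower. At an unadjusted p below 0.05, 1 was higher (Cox4i1, 0.47 ± 0.19) and 3 were lower (Uqcrb, Atp5k and Atp5md), against 4.56% and 3.52% of all genes. In the change of the genotype difference from 90 to 120 days, 0 members were called by limma, as were 0% of all genes, and at an unadjusted p below 0.05 7 were lower and 0 higher, against 4.92% and 4.65% of all genes. The smallest p was that of Atp5j, at -1.68 ± 0.44 (limma adjusted p = 0.279). Both comparisons share arrays with those above.

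Of the rest of the pathway, complex I had 34 tested subunit genes. In controls 3 rose between 60 and 120 days, Ndufa1 (1.28 ± 0.32), Ndufa3 (1.70 ± 0.32) and Ndufs1 (2.03 ± 0.58), and 0 fell, against 4.12% of all genes higher and 2.9% lower. In G93A mice Ndufv1 rose (1.36 ± 0.32) and Ndufab1, the acyl carrier protein, fell (-2.10 ± 0.34), where 1.13% of all genes were called in each direction. The change in genotype difference was lower for Ndufa1 (-2.36 ± 0.46) and Ndufab1 (-2.03 ± 0.48), each by limma at an adjusted p below the threshold, where 1.88% of all genes were lower. Of 18 assembly factors only Cox17, a copper chaperone of complex IV, was called, with 1.73 ± 0.31 with age in controls and -2.01 ± 0.44 in the change, against the same shares of all genes, 4.12% higher and 1.88% lower. The 4 subunits of complex II and 11 regulators of mitochondrial genes had 0 calls by limma in any comparison, where the share of all genes called in a direction was 0% to 4.12%, and at an unadjusted p below 0.05 at most 1 gene of each list in a direction passed. Ppargc1a, a coactivator of respiratory genes, differed by 0.94 ± 0.51 at 60 days, 0.55 ± 0.51 at 90 days and 1.19 ± 0.51 at 120 days. Its mean over ages was 0.89 ± 0.30 (limma adjusted p = 0.476), and none of these passed.

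Agreement between probe sets of a gene was partial. Of the 43 representing probe sets, 8 have the suffix _s_at and 2 _x_at, which can match more than 1 gene, and 15 have _a_at. For the 21 tested members with another tested probe set, all probe sets had the same sign in 14 in the change from 60 to 120 days, in 13 in the difference at 60 days and in 8 in the controls' change with age. For Atp5a1, 2 further probe sets gave changes of -1.15 ± 0.57 and -0.13 ± 0.82, neither of which passed. Their genotype differences at 60 days were 0.56 ± 0.40 and -0.84 ± 0.58, in the same order, and did not pass either.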

How the data were processed

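Motor neuron RNA of 18 mice was hybridized to 18 one-colour arrays, and groups were taken from the sample titles. The authors deposited a linear intensity for each probe set. Per the submitters' processing notes it came from MAS5, whose version and options were not given in the sources used here.

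Signals under 1 were set to 1 (965 of 408420 values, 0.236%) and put on the log2 scale with no further normalization. Testing was limited to probe sets brighter than the median of their array in 3 or more arrays, which kept 16565 probe sets, and 10020 genes with a tested representing probe set. Limma 3.58.1 in R 4.3.3 was fitted to the 6 group means with a variance trend. P-values were two-sided and adjusted by Benjamini-Hochberg over the 16565 probe sets within each of 8 comparisons, and an adjusted p below 0.05 was called. Errors with ± are standard errors unless marked SD. The script was tested on simulated data.

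Members, lists and tests were chosen with earlier results of these data known. Values per array are given for called members and, for each complex and age, for up to 3 members of smallest p whose genotypes did not overlap. Other members are given by their differences or ranges. Further probe sets were chosen after their values were seen. Replicate numbers were not taken to pair animals: over 9 pairs of same-numbered arrays the correlation of deviations was -0.12 to 0.06, and 0 pairs were over 0.1. Alternatives changed the log offset, filter, scaling, variance trend, array weights, covariates, block, probe set and arrays used. Gene symbols came from the platform annotation, and all 43 members matched a mouse gene table by Entrez identifier.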

Additional observations from a re-analysis of the deposited data

Results flagged for a closer look

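By limma's test of the difference itself, the gap between G93A and control mice was not the same at 60 and 120 days for 8 members (log2, 120 minus 60 days). It was lower at 120 days for Atp5c1 (-3.14), Atp5a1 (-2.91), Atp5md (-2.78), Cox7a2l (-2.60), Atp5g3 (-2.12), Atp5h (-2.02) and Atp5j (-1.83), and higher for Cox6a2 (2.80).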

How the results depend on the processing

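With 3 animals a group, and dim members such as Uqcrfs1, Cox7c and Atp5b, standard errors limit what can be called. The named differences kept their direction in 1253 of 1260 values under the alternatives. Many of these values could not turn. Changing only the filter or the variance trend leaves a log2 difference as it was. So does adding the replicate block, or leaving out an array of a group outside the comparison. The count is therefore not a measure of robustness. With the second-brightest probe set of a gene, an alternative chosen after seeing the data, the sign turned for Atp5c1 at 60 days (-1.14), with age in controls (-1.78) and in the change of the genotype difference from 60 to 120 days (1.57), for Uqcrb at 60 days (2.26), and for Atp5k (0.0998) and Atp5d (0.244) at 90 days. With quantile normalization it turned for Uqcrb at 60 days (0.189). The cause was not tested.

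Members called at 60 days (1) became 0 without the filter, without the variance trend, with either covariate and with the second probe set, and 2 with centring and with quantile normalization. At 120 days (0) there was 1 with log2(signal + 16) and 2 with the hybridization-control covariate. With age in controls (11) there were 6 with the Gapdh ratio as a covariate. With age in G93A mice (2) there were 0 without the trend and 1 with centring, with either covariate and with the replicate block. The replicate block (numbers that do not pair the animals) otherwise left the count of calls within 1.5 times. For the change from 60 to 120 days (8) there were 4 with quantile normalization, 2 with the hybridization-control covariate and 0 without the trend. Leaving out 1 array gave 0 to 2 at 60 days, 0 to 3 at 120 days, 7 to 12 in controls, 0 to 2 in G93A mice and 3 to 9 for that change.

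Medians of the members that moved by more than 0.136, the SD between replicates of their mean level, were as follows. With arrays centred on their medians they were 0.15 at 60, 0.13 at 90 and -0.74 at 120 days, 0.63 in controls, and -0.89 and -0.76 for the change from 90 and from 60 to 120 days. With quantile normalization they were 0.17 at 60, 0.13 at 90 and -0.27 at 120 days, -0.0088 over ages, -0.065 in G93A mice and -0.42 for the change from 60 days. With the hybridization-control covariate they were 0.20 at 60 days, -0.031 in controls, -0.16 in G93A mice and -0.50 for the change from 60 days, and with the Gapdh ratio 0.18 at 90 days, -0.014 over ages and 0.58 in controls. With the second probe set they were 0.13 at 90 days, 0.60 in controls, -0.15 in G93A mice, and -0.60 and -0.39 for the changes from 90 and 60 days. Leaving out 1 array gave -0.52 to -0.24 at 120 days, 0.096 to 0.42 in controls, -0.085 to 0.14 in G93A mice, -0.52 to -0.27 for the change from 90 days and -0.53 to -0.0029 for that from 60 days.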
